A study of Mus musculus with 6 samples.

Results

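The family of the microRNAs miR-34 and miR-449 was examined in cardiomyocytes from the hearts of mouse embryos at day E16.5 (EMCMs). Its members were chosen by name alone, as every miRNA of the table named miR-34 or miR-449 with any letter or arm, and this gave 8 of the 689 miRNAs listed. The 8 are the 2 arms of each of the hairpins Mir34a, Mir34b, Mir34c and Mir449a. The wild-type cells, of Swiss Webster background in the sample labels and CD1 background in the methods, grew on flexible membranes coated with collagen. They were held static for 24 hours in 3 samples, or stretched in cycles by 16% at 1 Hz for 24 hours in the other 3 samples. Small RNA was then sequenced. The methods give another number of samples per group than the labels, and whether the samples came from separate litters or cultures was not stated in the sources used here. These are cultures of primary cells in which markers of other cell types were found too.

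The value used for each miRNA is 1 deposited mean level for static and stretched cultures together, on a log2 scale. Taken as a power of 2, it was read as the share of all miRNA reads that belongs to that miRNA. These shares add up to 99.5% over the 689 miRNAs. Whether the mean was formed before or after taking logarithms is not given in the sources used here. Levels of single samples or of the 2 conditions were not analysed here. The depth of each sample is therefore unknown, the spread between replicates cannot be given for any value below, no test between stretched and static EMCMs was run, and no difference between members can be set against an error. The mature arms are of nearly the same length, 21 to 23 bases in those with a sequence here, so levels were compared without scaling for length. Adapters were joined to both ends of the RNA by ligation, and the libraries were amplified by PCR. Reads are not counts of molecules, so ratios between miRNAs or arms are ratios of reads.

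miR-34 is the best known miRNA family under the control of p53, the transcription factor that answers DNA damage and other stress. p53 binds near the genes of miR-34a and of the joint transcript of miR-34b and miR-34c, and the miRNAs repress messages for cell cycle and survival proteins such as Cdk6, Met and Bcl2. In the heart, miR-34a is known to rise with age and after injury. miR-34b, miR-34c and miR-449 are best known from cells with motile cilia and from the testis, where they help to form cilia and sperm. miR-449a comes from an intron of Cdc20b and is also induced by the cell cycle factor E2F1.

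What makes these miRNAs a family is the seed, bases 2 to 8 from the 5′ end, with which a miRNA pairs to its target messages. RefSeq sequences on GRCm38.p6 were matched for 7 of the 8 arms. The deposited names miR-34a, miR-34c and miR-449a were taken as the 5p arms and the names with an asterisk as the 3p arms, by the older naming of miRNAs, since the table holds no sequence. The 5p arms are shown first, with the seed in capitals, because it is identical in them.
miR-34a-5p: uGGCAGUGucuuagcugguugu
miR-34b-5p: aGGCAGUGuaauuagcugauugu
miR-449a-5p: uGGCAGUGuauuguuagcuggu
The arm miR-34c-5p is named only. The RefSeq table used is not complete and does not count miR-34c-5p. Among its 1679 mature mouse miRNAs, 4 (0.238%) held GGCAGUG at bases 2 to 8, namely these 3 and miR-449c-5p, which was not analysed here. Seed included, miR-34a-5p and miR-449a-5p had the same base at 15 of 22 positions counted from the 5′ end, the first 9 of them without a break.

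The 3p arms, which come from the opposite side of the hairpin, are shown because their seeds, again in capitals, divide the family.
miR-34a-3p: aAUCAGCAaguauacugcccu
miR-34b-3p: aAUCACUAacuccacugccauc
miR-34c-3p: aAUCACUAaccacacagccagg
miR-449a-3p: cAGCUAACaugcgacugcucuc
miR-34b-3p and miR-34c-3p shared the seed AUCACUA, which none of the other mature miRNAs in that table held at these bases. They had the same base at 17 of 22 positions, including the first 10. The seeds of miR-34a-3p and miR-449a-3p differed from it and from each other. The letters CACUGCC, which pair base by base with the GGCAGUG seed, stood in miR-34b-3p and not in the other 3 of these 3p arms. They were searched on the mature RNA strand at any position, and 9 of the 1679 mature miRNAs (0.536%) held them. Over the 614 miRNAs whose 2 arms RefSeq lists, 73 (11.9%) had a 3p arm that held the whole complement of the 5p seed.

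The hairpins lie at 3 places in the genome. In the annotation of GRCm38, Mir34a is found on the plus strand of chromosome 4, between positions 150068454 and 150068555, and overlaps an exon of Gm37795, a gene model that GENCODE keeps as provisional. Mir34c occupies positions 51103034 to 51103110 of chromosome 9 and Mir34b positions 51103562 to 51103645, both on the minus strand, with 451 bases between them. Both are inside an intron of Btg4, a gene of the opposite strand. Mir449a is at positions 113037534 to 113037624 of chromosome 13, inside an intron of Cdc20b and on the same strand, and Mir449b and Mir449c, not analysed here, lie in introns of the same gene. The build to which the authors mapped the reads is not given in the sources used here, and these positions are those of the annotation alone.

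miR-34c was by far the most abundant member of the family in EMCMs. Its deposited mean level was -8.76 on the log2 scale and its share 0.231% of all miRNA reads. It stood at place 37 of 689 miRNAs, next to miR-322 at 0.234% and let-7g at 0.213%, the miRNAs directly above and below it. miR-34c alone made up 87.1% of the family's reads. The most abundant miRNA of the table, miR-22, a cardiac miRNA, held 20.5% of the reads, 88.6 times as much as miR-34c.

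miR-34a, the member most often studied in the heart, was at -12.62 on the log2 scale, or 0.0158% of miRNA reads, and held place 129. This was 14.6 times less than miR-34c. The miRNAs directly above and below it in level were miR-181c* and miR-30d*.

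The arms of miR-34b, whose hairpin neighbours that of miR-34c, followed. The level of miR-34b-5p was -13.70, or 0.00754% at place 163, between miR-29b and miR-1193-3p. miR-34b-3p was at -13.87, or 0.00667% at place 174, between miR-376b and miR-351*. These were the closest neighbours in the order of the family, 1.13 times apart.

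The last members were miR-34c*, miR-449a and miR-34a*. miR-34c* was at -14.90, or 0.00328% at place 212, between miR-19a and miR-138. miR-449a was at -17.22, or 0.000654% at place 318, between miR-3102-3p.2 and miR-380-3p. miR-34a was 24.2 times as abundant as miR-449a, which carries the same seed. miR-34a* had the lowest level of the family, -20.01 or 9.45e-05%, at place 446; the miRNAs next to it were miR-93* below and, at 1 common level above, miR-466b-3p, miR-466c-3p and miR-466p-3p.

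For miR-449a*, listed at -36.75, no level is given. It belonged to a cluster of 25 miRNAs with values from -36.76 to -35.64, among them its neighbours miR-219-5p and miR-181b-1*. That cluster lay 11.1 units on the log2 scale below the other 664 miRNAs, of which the lowest was at -24.52. At the highest of these values, 1 read would need a library of 5.37e+10 reads, so the value is no share of reads counted.

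**Figure D1:**
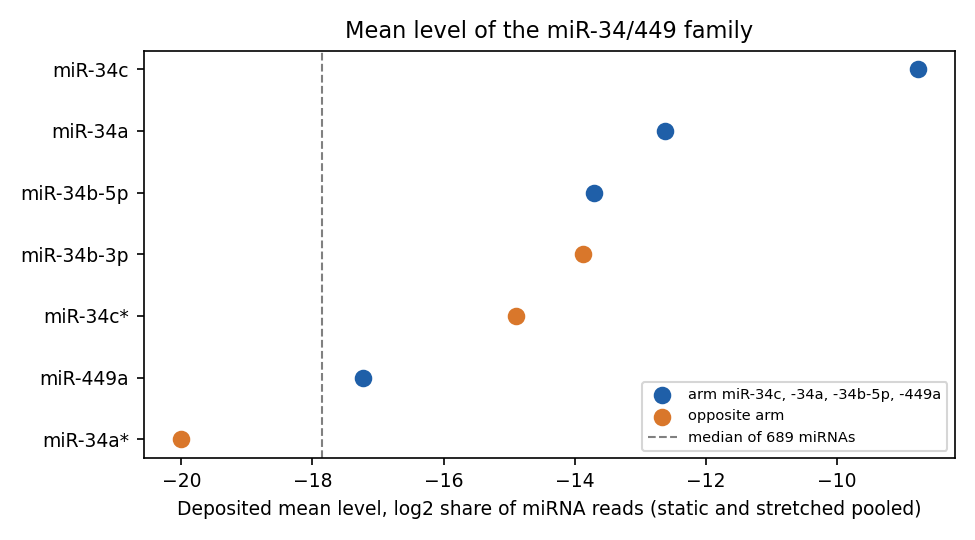
Deposited mean level of each member with a level, as log2 of its share of miRNA reads over static and stretched cultures together (horizontal axis). Each point is 1 pooled value, so there are no error bars; blue points are the arms miR-34c, miR-34a, miR-34b-5p and miR-449a, orange points the opposite arms, and the dashed line the median of all 689 miRNAs at -17.86. miR-34c at -8.76 stands 3.87 above the next member, and miR-34a* at -20.01 is the 1 point below the median.

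In all, 6 of the 8 members were above the median level of the table, which was -17.86, and the median of the 7 members with a level was -13.87. From miR-34c to miR-34a* the levels spanned 11.25 on the log2 scale. The steps between members were uneven. On the log2 scale miR-34c was 3.87 above miR-34a, and miR-34a was 1.07 above miR-34b-5p. miR-34b-5p was 0.18 above miR-34b-3p, which was 1.02 above miR-34c*. miR-34c* was 2.33 above miR-449a, and miR-449a was 2.79 above miR-34a*. Since these are pooled values, none of the steps could be compared with a spread between samples.

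**Figure D2:**
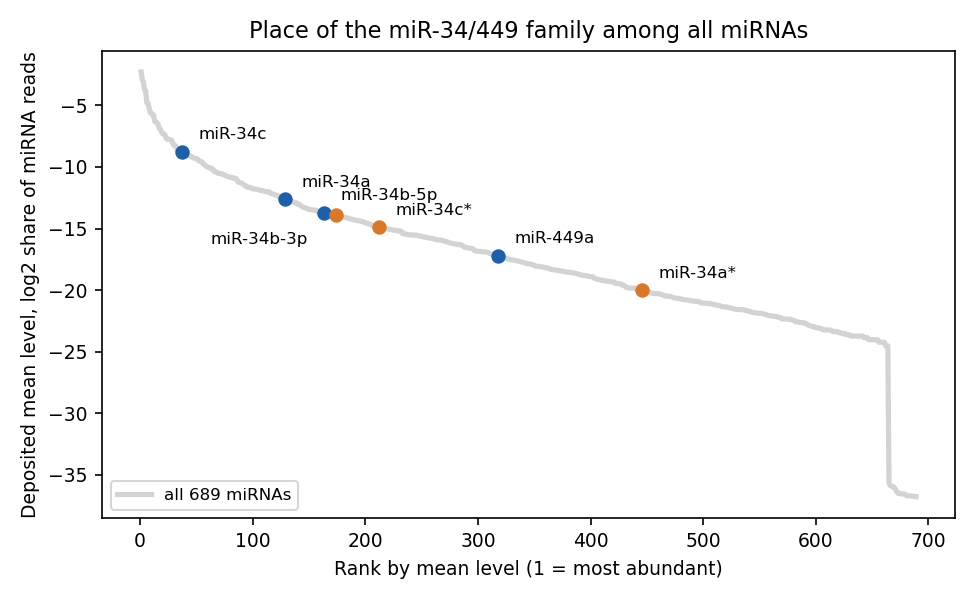
Deposited mean level (vertical axis, log2 share of miRNA reads) of all 689 miRNAs by rank (horizontal axis, 1 for the most abundant), drawn as a grey line, with the 7 members that have a level as points (blue and orange as for the arms above). The family runs from place 37 for miR-34c to place 446 for miR-34a*, and the line drops to a separate cluster of 25 miRNAs at its right end, where miR-449a* is listed.

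The family as a whole made up 0.265% of miRNA reads. By place in the genome, the 4 arms from Mir34b and Mir34c held 93.7% of this, those from Mir34a 6.01% and miR-449a 0.247%. The 4 arms miR-34c, miR-34a, miR-34b-5p and miR-449a, those with the family seed by sequence or, for miR-34c, by its family name, came to 0.255% of miRNA reads. The 3 opposite arms with a level came to 0.0100%. The seed was thus represented mostly by miR-34c, and the other 3 arms with it came to 0.0240%.

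The hairpins of the family differed in how their arms were represented. Of the 2 arms of a hairpin, usually 1 is kept as the mature miRNA and the other is degraded. miR-34a was 7.39 above miR-34a* on the log2 scale, a ratio of 168. miR-34c was 6.14 above miR-34c*, a ratio of 70.5. miR-34b had arms at nearly the same level, 0.18 apart with the 5p arm the higher. No difference is given for Mir449a, whose opposite arm has no level.

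Over the 228 hairpins of the table with a level for each arm, the median absolute difference was 3.91 on the log2 scale, with quartiles of 1.79 and 6.98. The difference of miR-34b was smaller than that of all but 4 of these hairpins. The difference was under 1 in 30 hairpins, which is 13.2%. That of miR-34c was larger than in 160 hairpins (70.2%) and that of miR-34a larger than in 176 (77.2%), so these fell in the upper part of the range without being at its end, which was 14.66.

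**Figure D3:**
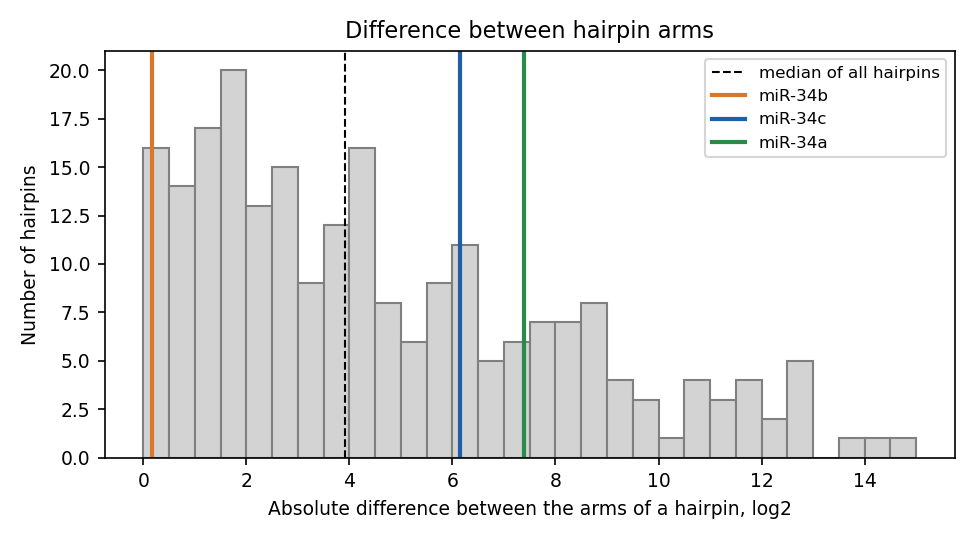
Number of hairpins (vertical axis) by the absolute difference between the deposited mean levels of their arms (horizontal axis, log2, bars 0.5 wide), for the 228 hairpins with a level for each arm. Lines mark miR-34b at 0.18, miR-34c at 6.14 and miR-34a at 7.39, and the dashed line the median of 3.91; miR-34b lies at the left end.

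Mir34b and Mir34c are neighbours on 1 strand, and their arms were in opposite order. Among the 5p arms, miR-34c was 30.6 times as abundant as miR-34b-5p. Among the 3p arms, miR-34b-3p was 2.03 times as abundant as miR-34c*. miR-34b-3p is also the 3p arm that held the whole complement of the family seed, as its sequence above shows; a relation between complement and level was not tested. The sequences of miR-34b and miR-34c resemble each other. How a tag that fits several miRNAs was counted is not given in the sources used here. The split of reads between these 2 hairpins is therefore uncertain. So are the difference between the arms of miR-34b and its place among the hairpins with a level for each arm.

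Other miRNAs with a known link to p53 also covered a wide range of levels. The list held 10 miRNAs, all of them above the median of the table. Its median was -13.29 on the log2 scale beside -17.86 for all miRNAs. Such a level was not particular to p53-linked miRNAs. Of the cell type lists below, the cardiomyocyte, fibroblast, endothelial and smooth muscle medians were higher, from -10.85 to -6.70. The epithelial, white blood cell and red blood cell medians were lower, from -17.18 to -20.13. The p53-linked list was led by miR-143 at 13.3% of miRNA reads and miR-16 at 0.631%, whose processing p53 can enhance. These were the 2 of the list above miR-34c, and miR-143 is also on the smooth muscle list. miR-192, a p53 target that restrains the cell cycle, was at 0.187%, close to miR-34c at 0.231%. miR-145, processed under p53 like its neighbour miR-143, was at 0.0694%, 3.33 times less than miR-34c. These 4 were the members of the list above miR-34a.

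The remaining p53-linked miRNAs were between miR-34a and miR-449a in level. miR-107, a p53 target in an intron of Pank1, was at 0.0129% and miR-194, which shares its clusters with miR-192 and miR-215, at 0.00774%. miR-215 was at 0.00477% and miR-15a, the cluster partner of miR-16, at 0.00459%. The epithelial miRNAs miR-205 and miR-200c, which p53 also induces, were the lowest at 0.00100% and 0.000816%. Each of the 10 was above miR-449a.

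**Figure D4:**
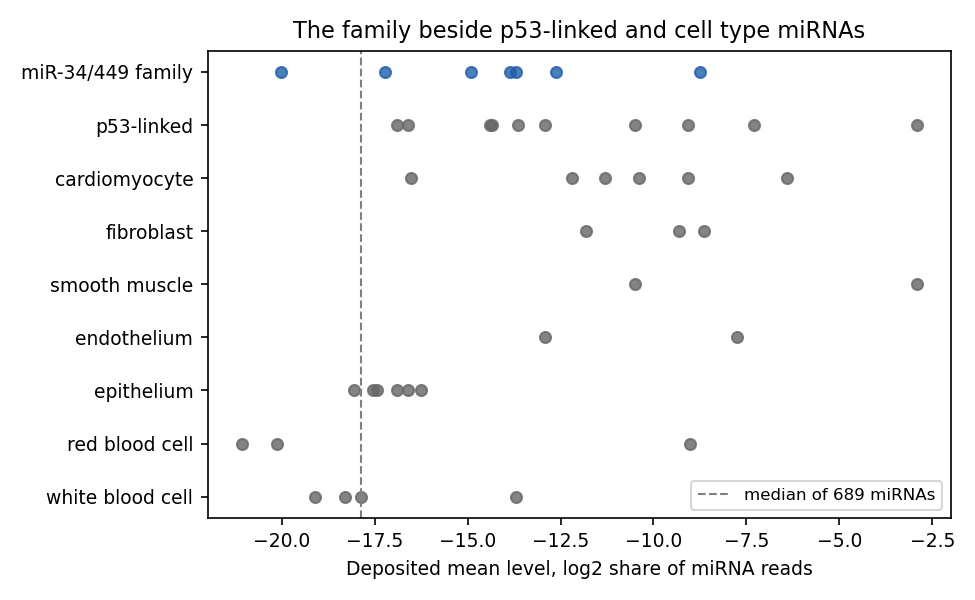
Deposited mean level (horizontal axis, log2 share of miRNA reads) of the 7 family members with a level, of 10 other p53-linked miRNAs and of miRNAs known as markers of cell types, 1 point for each miRNA; miRNAs on 2 lists appear in each. The dashed line is the median of all 689 miRNAs at -17.86, and miR-34c lies well to its right. The cardiomyocyte list lies to the right of the line, with miR-133b nearest to it at -16.52. The epithelial list runs from -18.07 to -16.27, with 5 of its 6 miRNAs to the right of the line.

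The labelled cell type was checked against miRNAs known to mark cell types. All 6 cardiomyocyte miRNAs were above the median of the table and together held 1.50% of miRNA reads. They were led by miR-208b, encoded in the myosin gene Myh7, at 1.17%, and miR-133b was the lowest at 0.00106%. Between them were miR-133a at 0.186%, miR-208a-3p at 0.0747%, miR-1a at 0.0395% and miR-499 at 0.0214%, all below miR-34c. A level above that median did not set cardiomyocytes apart. It was also found for all 3 fibroblast, 2 smooth muscle and 2 endothelial miRNAs and for 5 of the 6 epithelial miRNAs. Markers of other cells of the heart were present too. The 3 fibroblast miRNAs held 0.439%, the 2 endothelial miRNAs, the arms of miR-126, 0.477%, and the smooth muscle miRNAs miR-143 and miR-145 together 13.4%, of which miR-143 is the most abundant miRNA of the table after miR-22. The endothelial sum came mostly from miR-126-5p at 0.464%, while miR-126-3p was at 0.0129%, under the level of miR-34a. The 6 epithelial miRNAs ranged from -18.07 to -16.27 on the log2 scale and held 0.00453% in sum, 51.0 times less than miR-34c alone. miR-451 and miR-144, which red blood cells carry, were at 8.69e-05% and 4.50e-05%, while miR-486, the third miRNA of that list and one that muscle also makes, was at 0.194%, and the 4 white blood cell miRNAs held 0.00839%. Of this sum, miR-142-5p alone gave 0.00749%, and it was the 1 miRNA of the 4 above the median of the table. In a bulk culture, fewer cells of a type and less miRNA per cell cannot be told apart, and which cells the reads of the family came from was not tested.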

How the data were processed

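Small RNA of static and stretched EMCMs was sequenced by the authors from TruSeq libraries on a HiSeq2500. According to the methods, reads were filtered and trimmed, mapped with Bowtie2 and summed per gene ID, and the authors took levels and significance from edgeR. The submitters' processing notes also name DESeq for the authors' steps. The genome build, tool versions, normalization and treatment of multiply mapping tags are not given in the sources used here. The authors deposited 1 mean abundance per miRNA over both groups, as a log2 value. The 4 further columns hold the authors' own comparison of stretch with static (fold changes on 2 scales, P values and FDR) and were not used, so the test planned for counts, like any other test between groups, was not run.

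From the levels, shares (2 to the power of the level), ranks and differences between hairpin arms were computed, with values under -30 treated as no level. Shares, ranks and arm differences were checked on simulated levels, with arms paired by an asterisk only. For shares, that check only reversed the log2 step. The cut at -30 and the pairing of 5p with 3p were not checked there. Arms were paired by name (an asterisk, or 5p with 3p). Sequences came from RefSeq (GRCm38.p6) and positions from GENCODE M21 (GRCm38). The miRNAs named are the members, their neighbours in level, miRNAs with the same seed, 10 p53-linked miRNAs, cell type markers and the most abundant miRNA; members and lists were chosen with earlier results of these data known. The alternatives were other totals, other sets of arms, hairpins and miRNAs, and identical miRNAs counted once. Depth per sample, and so the precision of each level, is unknown. Python 3.11.15, numpy 2.4.6, pandas 2.3.3 and matplotlib 3.10.9 were used.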

Additional observations from a re-analysis of the deposited data

How the results depend on the processing

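Each level is 1 pooled value of unknown depth, so a value was counted as moved when its first 3 significant digits changed. The summed share of the family, 0.265% of miRNA reads, was 0.266% with all shares rescaled to a sum of 100%, 0.267% with identical miRNAs also counted once, 0.255% for arms with the family seed only and 0.0341% without miR-34c, which thus decides it. Shares of single members moved by at most 0.822% of their value when rescaled. Ranks did not move without the lowest cluster, and moved by at most 8 places, in 6 of the 7 members with a level, when identical miRNAs were counted once; none of the members shares its level with another miRNA. Among the 146 hairpins above the median of the table, the share with a smaller difference between arms was 69.2% for miR-34a, 62.3% for miR-34c and 0% for miR-34b, beside 77.2%, 70.2% and 1.75% over all 228. The median of the p53-linked list was the same with its members above the median only, since all 10 were.

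No paired analysis was possible because each miRNA has 1 pooled value. Fits without a replicate, other normalizations and count filters could not be made either. Unknown depth weighs most on the rarest members, miR-34a* and miR-449a.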
